A study of Homo sapiens with 17 samples.

Results

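The IRS4 transcript was followed through all 11 peak lists of an eCLIP series on 6 proteins. Its peaks were those on the minus strand of chromosome X whose midpoint fell between 107963179 and 107979651 (hg19), a stretch of 16473 nt taken to hold IRS4 with an extended 3′ end. That the peaks far from the 5′ end belong to the IRS4 transcript rests on this range and was not checked against a gene model. This gave 342 of the 389788 peaks in the lists. The gene was selected on the values described here, since it had been picked for a run of significant RNF219 peaks. The RNF219 folds are therefore a description and are not tested. RefSeq (GRCh38.p14) places IRS4 (gene ID 8471) between COL4A5 and GUCY2F, with IRS4-AS1 overlapping it on that map. No hg19 gene annotation was used here, so the parts of the transcript are given as distances from the 5′ end of the stretch rather than as exons or UTRs. In none of the 11 libraries did a peak lie on the opposite strand of the stretch (0 peaks).

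All samples came from 293T, an established human embryonic kidney line, irradiated while plated with 254 nm light at 400 mJ per square cm. eCLIP pulls down 1 protein with an antibody after this cross-linking and sequences the RNA fragments held to it. The antibodies were against AIFM1, a mitochondrial oxidoreductase, NUMA1, a spindle pole protein, RANGAP1, the GTPase activator of Ran, RNF219, a RING finger ubiquitin ligase, VIM, an intermediate filament protein, and ZNF184, which carries zinc fingers. The 17 samples were 11 eCLIP libraries, 2 per protein and 1 for RNF219, and 6 size-matched inputs, which are RNA from the same gel region with no pull-down. Each protein had a single input that served both of its replicates, and nothing is said of whether the cells had been grown separately.

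IRS4 belongs to the insulin receptor substrates, docking proteins that become tyrosine-phosphorylated by the insulin and IGF1 receptors and then recruit the phosphatidylinositol 3-kinase and GRB2 pathways. It is known for its high level in human embryonic kidney cells, from which the protein was first isolated. A peak in these lists marks a stretch with a pile of eCLIP reads, and its value is the authors' log2 fold of eCLIP over input. A transcript that is abundant can thus carry many peaks that are no higher than input.

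The IRS4 peaks fell into a pair of blocks with a long empty stretch between them. The block near the 5′ end held 184 peaks between 107975811 and 107979538, at 0.13 to 3.82 kb from the 5′ end. The block at the 3′ end held 157 peaks between 107963265 and 107967989, at 11.69 to 16.37 kb. The remaining peak lay between them at 5.37 kb (107974274 to 107974291), was found in VIM replicate 1 alone, and had a log2 fold of 1.15 from 16 eCLIP beside 35 input reads. Peaks within 4 kb of the 5′ end are called the 5′ part and all others the 3′ part.

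Every library had peaks in both parts. The libraries held between 13 IRS4 peaks, in VIM replicate 2, and 53, in ZNF184 replicate 1. Peaks per kb were lower in the 3′ part in each of the 11 libraries, at 0.401 to 2.00 against 1.75 to 7.00 in the 5′ part. Over the 5 proteins with replicates the difference was -3.03 ± 1.68 peaks per kb (SD, n = 5), below 0 in 5 of 5 (exact sign-flip permutation test, 2-sided, p = 0.0625, and 0.0625 after Benjamini-Hochberg adjustment over 2 tests). This is the smallest p that 5 proteins allow, so the design cannot reach 0.05. RNF219 had a difference of -2.99 peaks per kb. The 3′ part includes the empty stretch, which lowers its peaks per kb. With the split at 3 kb the mean was -2.94, and with the split at 6 kb it was -1.48. Over the span of each block alone, a setting added after the data were seen, NUMA1 turned to 0.25 peaks per kb higher at the 3′ end. AIFM1 was at -1.45, RANGAP1 at -4.04, VIM at -1.17 and ZNF184 at -1.44. The mean was then -1.57 ± 1.55 (SD, n = 5), below 0 in 4 of 5 (exact sign-flip permutation p = 0.125). RNF219 was at -0.44 on this count.

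**Figure D1:**
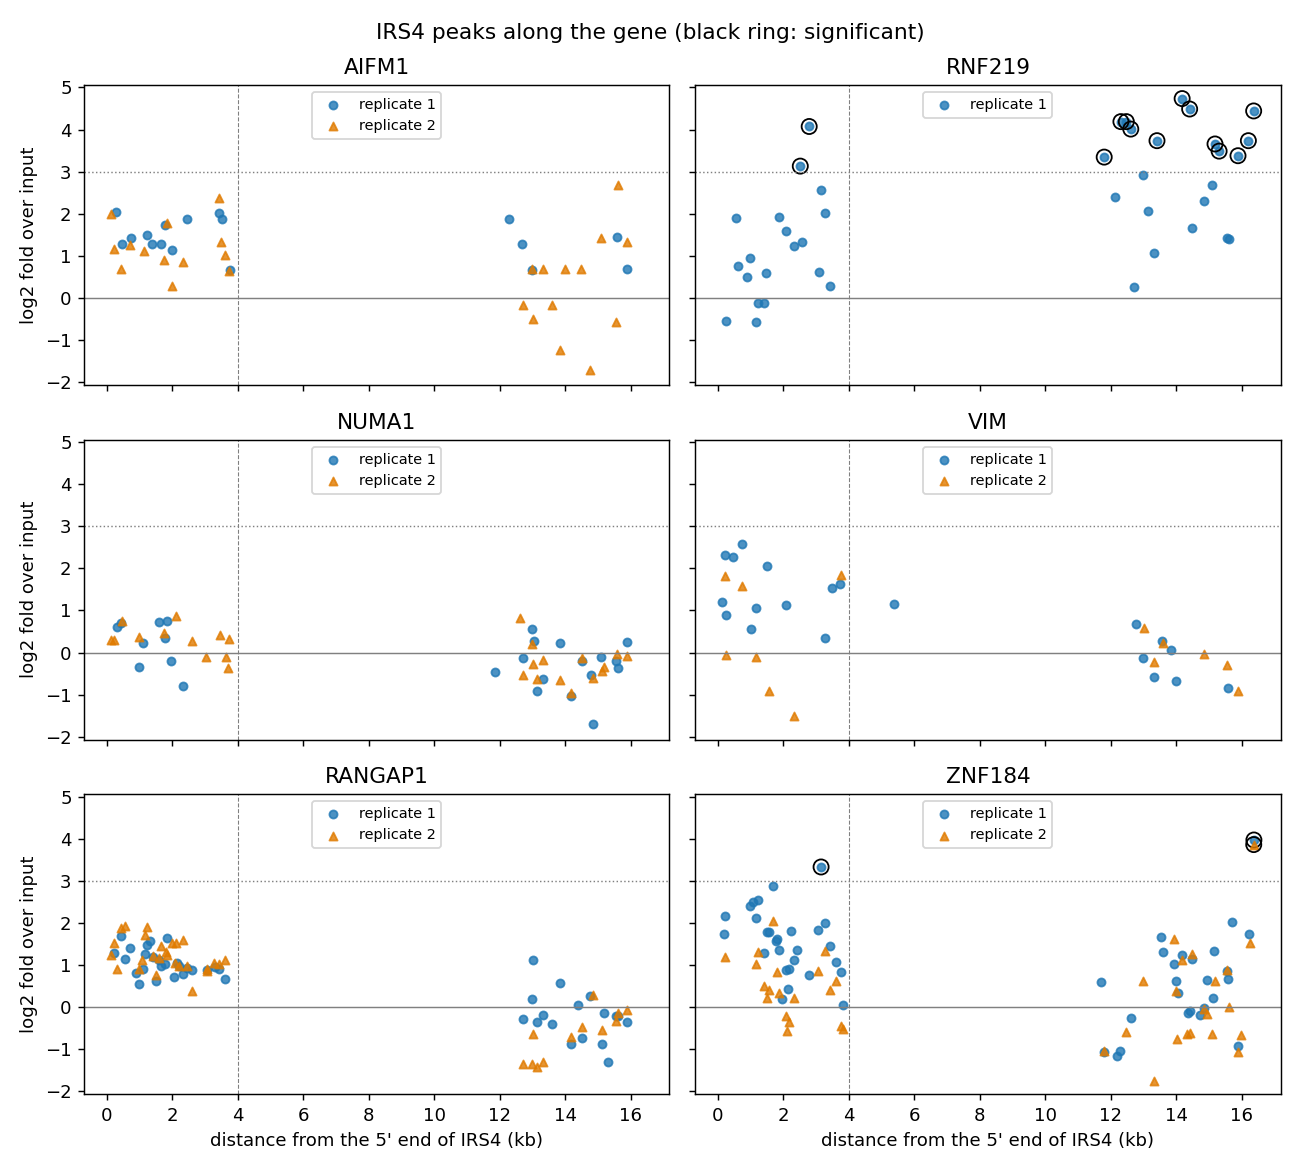
Authors' log2 fold over input (vertical axis) of each IRS4 peak against its distance from the 5′ end in kb (horizontal axis), with 1 panel per protein and 1 colour per replicate. Black rings mark significant peaks, the dotted line a log2 fold of 3 and the dashed line the split at 4 kb. Points lie in the first 3.82 kb and beyond 11.69 kb, with 1 VIM peak between, and only the RNF219 panel has most of its 3′ points above 2.

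RNF219 had its highest folds at the 3′ end. Its 22 peaks in the 3′ part had a median log2 fold of 3.36 (range 0.25 to 4.74), and its 19 peaks in the 5′ part had a median of 0.95 (range -0.58 to 4.07), beside 1.07 over all peaks of the library. The 3′ part was thus higher by 2.41 on the log2 scale, from 1 library with no replicate. In 1-kb steps the medians were 0.77, -0.11, 1.59 and 1.31 over the first 4 kb and 3.35, 3.47, 2.07, 3.39, 3.03 and 4.09 from 11 to 17 kb. The lowest of these 6 medians was above the highest of the first 4. The 6 steps held only 1, 6, 3, 4, 6 and 2 peaks, and single peaks in them went down to 0.25.

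With significant meaning a log2 fold of at least 3 and a -log10 p of at least 3, RNF219 had 14 significant peaks among 41 (34.1%, 95% Wilson interval 21.6 to 49.5). Over its whole list the share was 0.926%. This share was part of how the gene was picked, so nothing is read from it. Of the 14, 12 lay in the 3′ part and 2 in the 5′ part. The 3 highest were at 107965449 to 107965491 (4.74, from 38 eCLIP reads beside 1 input read), at 107965219 to 107965263 (4.49, from 32 beside 1) and at 107963265 to 107963307 (4.44, from 31 beside 1). The last of these was the peak nearest to the 3′ end. These read numbers were recovered from the fold and the p of each peak. The interval for the highest fold ran from 2.17 to 10.1, so a peak with 1 input read has a wide error. Of the 12 significant peaks of the 3′ part, 9 had 1 input read. The recovery could not give fewer than 1, so an empty input could not be told from 1 read. In the whole list 11710 of 15994 peaks with recovered reads had 1. Folds and intervals at 1 input read thus rest on the lowest divisor there was.

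The peak with the most reads was at 107963736 to 107963793. It had 89 eCLIP reads beside 6 input reads, a log2 fold of 3.38 (95% interval 2.20 to 4.86) and a -log10 p of 11, the highest of the RNF219 peaks on this transcript. The remaining 8 significant peaks of the 3′ part, in order towards the 5′ end, began at 107963437 (3.74), 107964322 (3.49), 107964463 (3.66), 107966227 (3.74), 107967026 (4.01), 107967156 (4.19), 107967319 (4.19) and 107967828 (3.35), with log2 folds in brackets. The significant peaks of the 5′ part were at 107976840 to 107976876 (4.07, 24 reads beside 1) and at 107977113 to 107977147 (3.13, 25 beside 2). Intervals here cover counting error only, and reads copied by PCR are not independent molecules.

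Just inside the threshold lay the peaks at 3.13, 3.35 and 3.38. Just outside lay 107966655 to 107966698 at 2.92 (54 reads beside 5), 107964526 to 107964591 at 2.69 (46 beside 5) and, in the 5′ part, 107976488 to 107976508 at 2.58 (17 beside 2). The first 2 of those outside had -log10 p of 6.19 and 5.00 and more reads than most peaks inside. With the p criterion alone, 14 of 22 peaks in the 3′ part and 3 of 19 in the 5′ part were above input, beside 2.38% of the whole list. In this library 1 input read needs 18 eCLIP reads beside it to be significant.

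**Figure D2:**
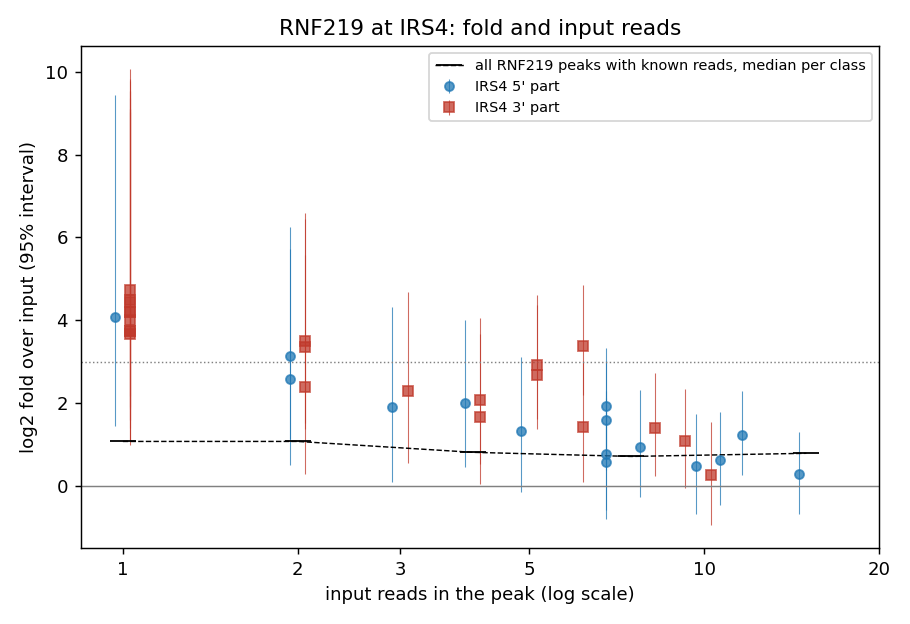
Authors' log2 fold of each RNF219 peak on IRS4 with recovered reads (vertical axis) against its input reads (horizontal axis, log scale), coloured by part of the transcript, with bars for the 95% interval from counting and a dashed line for the median of all RNF219 peaks with as many input reads. Peaks with 1 input read had medians of 4.07 (1 peak, 5′ part) and 4.19 (9 peaks, 3′ part). Folds fall as input reads rise in both parts, where input reads are the divisor of the fold.

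The 2 parts differed in RNF219 by their input reads more than by their eCLIP reads. The median peak had 23 eCLIP reads in the 5′ part and 26 in the 3′ part, beside 7 and 2 input reads (15 and 22 peaks with recovered reads, which leaves out 4 peaks below input in the 5′ part). Among peaks with 1 input read, the median fold was 4.07 in the 5′ part (1 peak) and 4.19 in the 3′ part (9 peaks). With 2 input reads it was 2.85 (2 peaks) and 3.35 (3 peaks), with 3 to 5 it was 1.90 (3 peaks) and 2.30 (5 peaks), and with 6 to 9 it was 0.95 (5 peaks) and 1.41 (4 peaks). With 10 or more it was 0.55 (4 peaks) and 0.25 (1 peak). In each class the gap was far below the 2.41 over all peaks. Input reads are the divisor of the fold, so within a class mainly the eCLIP reads can differ. A smaller gap was thus built in, and nothing is concluded from it. The last class leaves out the 4 peaks below input in the 5′ part, and with them included the 3′ part was higher by 0.17 among peaks with at least 10 input reads. Over the whole library, peaks with 1 input read had a median fold of 1.07 and 0.564% of them were significant. The IRS4 peaks of that class were higher, 9 in the 3′ part and 1 in the 5′ part. The gene was picked for such peaks, so nothing is read from this. The part played by input coverage in the difference between the ends was not tested.

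None of the 22 RNF219 peaks of the 3′ part was below input, and 4 of the 19 in the 5′ part were, where the whole list had 21.6%. The 4 lay within 1.41 kb of the 5′ end, at log2 folds of -0.12, -0.11, -0.58 and -0.56.

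In the other 5 proteins the order of the ends was the reverse. The median log2 fold of the 3′ part minus that of the 5′ part was -0.18 and -0.44 in the AIFM1 replicates, -0.54 and -0.61 in NUMA1, -1.19 and -1.76 in RANGAP1, -1.42 and -0.06 in VIM, and -0.96 and -0.45 in ZNF184. All 10 libraries were below 0. Averaged over replicates, the 5 proteins had a mean of -0.76 ± 0.43 (SD, n = 5), below 0 in 5 of 5 (exact sign-flip permutation test, 2-sided, p = 0.0625, and 0.0625 after adjustment over 2 tests, again the smallest that 5 proteins allow). The RNF219 value of 2.41 lay outside the range of these proteins, and that difference was not tested, since it is how the gene was picked.

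**Figure D3:**
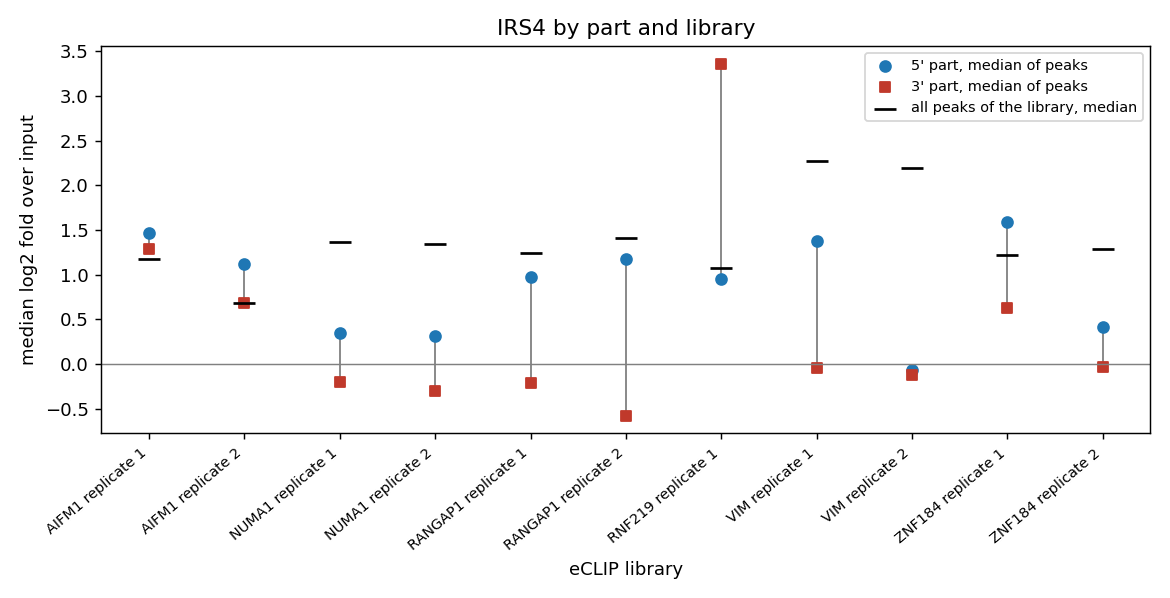
Median log2 fold over input (vertical axis) of the IRS4 peaks in the 5′ part (circles) and the 3′ part (squares) of each library (horizontal axis), joined by a line, with dashes for the median of all peaks of the library. The square lies above the circle in RNF219, at 3.36 against 0.95, and below it in the 10 other libraries, by -1.76 to -0.06.

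The same order showed in the share of peaks below input. Over the 10 libraries of the other proteins, 15 of 165 peaks (9.09%) were below input in the 5′ part and 80 of 136 (58.8%) in the 3′ part. The 15 came from 4 libraries: 4 of 7 peaks in VIM replicate 2 (57.1%), 3 of 9 and 3 of 12 in the NUMA1 replicates (33.3% and 25%) and 5 of 19 in ZNF184 replicate 2 (26.3%), each above the whole list. The other 6 libraries had 0 there. In the 3′ part the counts were 12 of 17 and 11 of 12 in RANGAP1 (whole lists 9.74% and 7.47%), and 11 of 15 and 12 of 14 in NUMA1 (12.2% and 9.48%). They were 4 of 8 and 4 of 6 in VIM (7.5% and 8.47%), 9 of 25 and 11 of 21 in ZNF184 (10.7% and 12.8%), and 0 of 5 and 6 of 13 in AIFM1 (11.9% and 20%). In 9 of these 10 libraries the share in the 3′ part was thus above that of the whole list, the exception being AIFM1 replicate 1. Peaks of 1 transcript are not replicates, so these shares carry no test.

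RANGAP1 had its higher IRS4 folds near the 5′ end. Its median fold there was 0.97 and 1.18 in the 2 replicates, against -0.22 and -0.58 in the 3′ part. Over all peaks of its libraries the medians were 1.24 and 1.42, so both parts were below the library median. In the 5′ part 0 of its 26 and 27 peaks were below input. Of these, 10 and 18 were above input with a -log10 p of at least 3, beside 6.13% and 8.66% of the whole lists. Its 3 highest such peaks were all in replicate 2, at 107979078 to 107979110 (1.93, 43 eCLIP reads beside 20), 107978389 to 107978434 (1.91, 59 beside 28) and 107979198 to 107979209 (1.88, 27 beside 13). None reached a log2 fold of 2. RANGAP1 thus had 0 significant peaks of 43 and 0 of 39, which allows shares of up to 6.98% and 7.69%, where the whole lists had 1.52% and 2.99%.

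ZNF184 was the only protein besides RNF219 with significant IRS4 peaks, 2 of 53 in replicate 1 and 1 of 40 in replicate 2. The whole lists had 3.15% and 4.82%, so the counts on IRS4 were near the background of each library. Both replicates had 1 at the far 3′ end, at 107963271 to 107963287 (3.97, 23 eCLIP reads beside 2) and 107963275 to 107963293 (3.86, 19 beside 2). Both overlapped the RNF219 peak nearest to the 3′ end, at 4.44. The other was near the 5′ end in replicate 1, at 107976491 to 107976499 (3.33, 59 beside 8, 95% interval 2.26 to 4.61). RNF219 had 2.58 there, and ZNF184 replicate 2 had no significant peak in the 5′ part.

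The ZNF184 replicates differed in the 5′ part. The median fold was 1.59 in replicate 1 and 0.41 in replicate 2, beside library medians of 1.22 and 1.29. Peaks above input with a -log10 p of at least 3 numbered 25 of 28 and 4 of 19 (whole lists 9.64% and 10.3%). In the 3′ part the medians were 0.63 and -0.04, with 7 of 25 and 2 of 21 such peaks.

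VIM also differed between replicates. Replicate 1 had a median of 1.37 in the 5′ part and -0.04 in the 3′ part, and replicate 2 had -0.07 and -0.13. VIM had library medians of 2.27 and 2.20 over all peaks, above both parts. Its 3 highest peaks were in replicate 1, near the 5′ end, at 107978895 to 107978943 (2.57, 27 eCLIP reads beside 22), 107979400 to 107979445 (2.33, 29 beside 28) and 107979179 to 107979197 (2.27, 10 beside 10). In the 5′ part 5 of 12 and 3 of 7 peaks were above input with a -log10 p of at least 3, beside 8.44% and 6.87% of the whole lists. No VIM peak was significant, 0 of 20 and 0 of 13, where the whole lists had 5.29% and 4.50% and these counts allow up to 15% and 23.1%.

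NUMA1 was low along the transcript. Its medians were 0.34 and 0.31 in the 5′ part and -0.20 and -0.30 in the 3′ part, and its IRS4 folds ran from -1.69 to 0.75 in replicate 1 and from -0.96 to 0.88 in replicate 2. It had 0 significant peaks of 24 and 0 of 26 (up to 12.5% and 11.5% allowed, whole lists 1.51% and 0.877%).

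AIFM1 had medians of 1.46 and 1.12 in the 5′ part and 1.28 and 0.68 in the 3′ part, the latter equal to the library median in replicate 2. Its only peak above input with a -log10 p of at least 3 was in replicate 1 at 107977825 to 107977935 (1.74, 33 eCLIP reads beside 12). The share of the whole AIFM1 lists by this measure was not taken, so nothing is read from this count. AIFM1 is given below by the main threshold. By that threshold AIFM1 had 0 significant peaks of 17 and 0 of 26 (up to 17.6% and 11.5% allowed, whole lists 0.216% and 0.214%). AIFM1 replicate 2 needs 23 eCLIP reads beside 1 input read for a significant peak and VIM replicate 1 needs 5, so the same binding is not equally detectable in each library.

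At the 12 significant RNF219 peaks of the 3′ part, the other libraries had 32 overlapping peaks, with a median fold of -0.20 and a range of -1.31 to 3.97. Of these, 0 were above the RNF219 value and 20 were below input. The sites were chosen for a high RNF219 fold, which goes far to fix the first count. The peak with the most RNF219 reads, at 107963736, was met by 9 of the 10 other libraries. AIFM1 had 0.70 and 1.32 there, NUMA1 0.25 and -0.08, RANGAP1 -0.36 and -0.07, ZNF184 -0.92 and -1.06, and VIM replicate 2 -0.91, against 3.38 in RNF219. Except for AIFM1 and NUMA1 replicate 1, all of these were below input.

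At the highest RNF219 peak, at 107965449, ZNF184 had 1.24 and 1.13. NUMA1 had -1.03 and -0.96 and RANGAP1 -0.88 and -0.72 at the same place, and AIFM1 and VIM had no peak. RNF219 alone had a peak at 107966227.

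**Figure D4:**
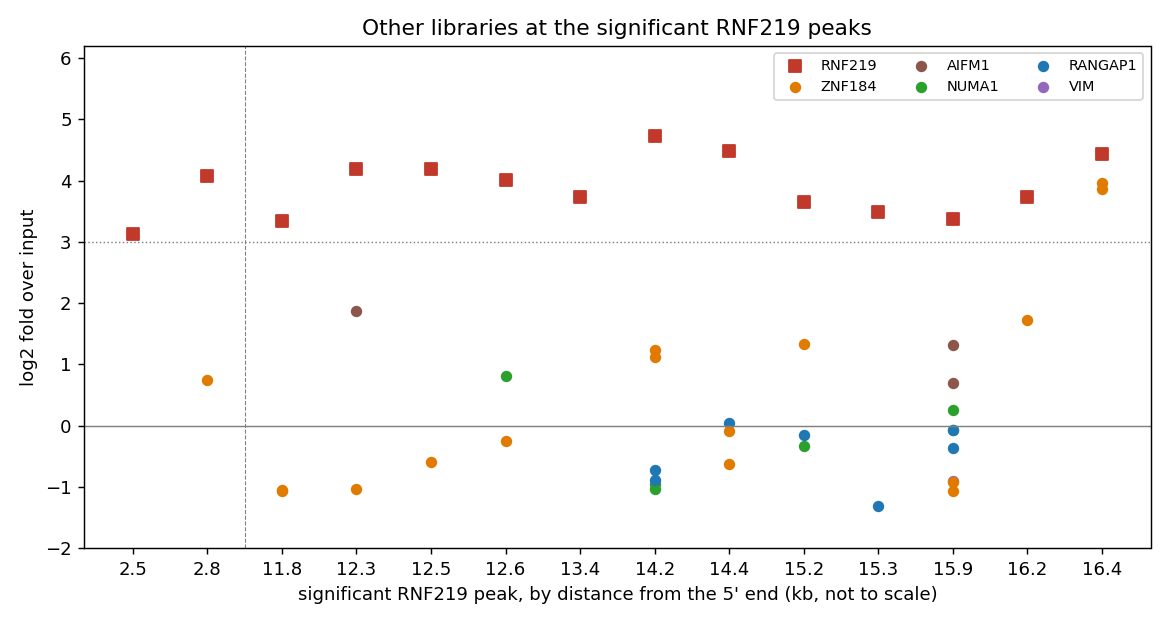
Log2 fold over input (vertical axis) of RNF219 (squares) and of overlapping peaks of the other libraries (circles, coloured by protein) at each significant RNF219 peak of IRS4 (horizontal axis, ordered by distance from the 5′ end in kb and not to scale). The 14 sites were chosen for a high RNF219 fold, 2 of them have no other peak, and the ZNF184 points at the far 3′ end, at 3.97 and 3.86, come closest to it.

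Taking all RNF219 peaks of the 3′ part and not only the significant ones, RNF219 was above NUMA1, RANGAP1, VIM and ZNF184 at every site where their libraries had a peak, 3 to 14 sites per library with the widest overlapping peak taken. The median gap was 2.24 to 2.82 in these 8 libraries. Against AIFM1 it was higher at 3 of 6 and 7 of 8 sites, with median gaps of 1.12 and 1.12. In the 5′ part RNF219 was higher at 7 of 14 and 4 of 12 sites of RANGAP1, 5 of 14 and 5 of 11 of ZNF184, 3 of 3 and 2 of 4 of NUMA1, 0 of 4 and 2 of 5 of AIFM1, and 2 of 4 and 1 of 3 of VIM. The median gap there was 1.28 and 0.23 against NUMA1 and -1.68 and -1.70 against AIFM1. The sites of the 3′ part belong to the RNF219 run for which the gene was picked. Their counts and gaps are thus a description and not a separate check.

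When peaks that share at least 1 nt were joined across libraries, the 5′ part had 31 sites and the 3′ part 39. Each part had 1 site with a peak in all 11 libraries. The site near the 5′ end was at 107979303 to 107979538, where RNF219 had the lowest fold, -0.56, and VIM replicate 1 the highest, 2.33. There, AIFM1 had 2.05 and 1.17, NUMA1 0.61 and 0.30, RANGAP1 1.28 and 1.52, VIM replicate 2 1.81, and ZNF184 2.17 and 1.20. The site in the 3′ part was at 107964018 to 107964120. AIFM1 had 1.45 and 2.68 there, NUMA1 -0.20 and -0.03, RANGAP1 -0.20 and -0.14, RNF219 1.39, VIM -0.84 and -0.29, and ZNF184 0.66 and 0.88. Both AIFM1 libraries were thus above RNF219 at this site. Where a library had several peaks in a site, the one with the highest -log10 p is given, or the highest fold where all were below input.

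Replicates found many of the same places. Of the replicate 1 peaks, 34 of 43 in RANGAP1 met a replicate 2 peak (79.1%, 95% Wilson interval 64.8 to 88.6), 12 of 17 in AIFM1 (70.6%, 46.9 to 86.7), 36 of 53 in ZNF184 (67.9%, 54.5 to 78.9), 14 of 24 in NUMA1 (58.3%, 38.8 to 75.5) and 8 of 20 in VIM (40%, 21.9 to 61.3). Across the shared peaks the folds had Pearson's r of 0.88 in ZNF184, 0.82 in RANGAP1, 0.78 in VIM, 0.48 in NUMA1 and 0.41 in AIFM1 (n = 36, 34, 8, 14 and 12 peaks, which share a transcript and an input and are not independent). Both parts are pooled in r, so it also reflects the gap between them and not only agreement from peak to peak. In ZNF184 the shared peaks were higher in replicate 1 by a median of 0.79.

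**Figure D5:**
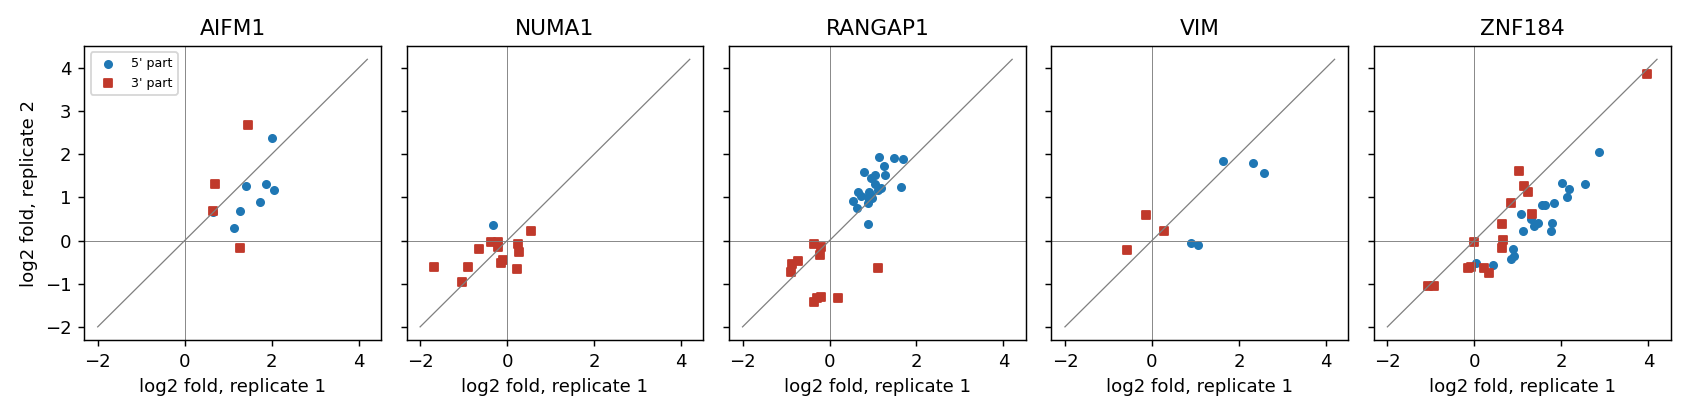
Log2 fold over input of IRS4 peaks in replicate 1 (horizontal axis) and of the overlapping peak in replicate 2 (vertical axis), with 1 panel per protein, 1 colour per part and the line of equal values. ZNF184 points lie mostly below the line, by a median of 0.79. RANGAP1 points of the 5′ part lie nearer to it, and several of its 3′ points lie far below it.

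For the level of the whole transcript, the median fold of the IRS4 peaks minus that of all peaks of the library was taken, which sets aside the depth constant of a library. RNF219 was highest at 0.94 (n = 1). AIFM1 followed at 0.17 ± 0.11 (SD, n = 2), then RANGAP1 at -0.43 ± 0.01 (SD, n = 2), ZNF184 at -0.50 ± 0.60 (SD, n = 2), NUMA1 at -1.48 ± 0.07 (SD, n = 2) and VIM at -1.78 ± 0.69 (SD, n = 2). RANGAP1 lay between the ZNF184 replicates (-0.08 and -0.93) and NUMA1 between the VIM replicates (-1.29 and -2.26), so these neighbours in the order did not differ beyond their spread. This order is that of all peaks as deposited. A minimum of 10 input reads was also set, for the IRS4 peaks and for all peaks of the library, so the library median moved too. Below input the read numbers are the smallest that give the fold. The minimum can thus drop peaks below input whose true input reads were higher. RNF219 was then at 0.91, between the AIFM1 replicates at 0.99 and 0.86, and so was not the highest. Few RNF219 and AIFM1 peaks were left, with 1 RNF219 peak in the 3′ part. The median AIFM1 peak with recovered reads had 4.5 and 5 input reads in the 5′ part of the replicates and 3 and 2.5 in the 3′ part. RANGAP1 had 0.37 and 0.46, VIM replicate 1 had 0.47 and ZNF184 replicate 1 had 0.61. Each was above the library median under that minimum and below it without the minimum.

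The 5 stretches of 20 kb whose level ran most like that of IRS4 over the libraries were found on chromosomes 21 (plus strand, 34920001 to 34940000; r = 0.95, n = 11 libraries), 14 (minus strand, 102540001 to 102560000; r = 0.94, n = 11), 6 (minus strand, 160200001 to 160220000; r = 0.93, n = 10), 3 (plus strand, 140680001 to 140700000; r = 0.92, n = 8) and 12 (plus strand, 53680001 to 53700000; r = 0.92, n = 10). They were the highest of 1572 stretches with at least 3 peaks in at least 8 libraries, over which the median r was 0.10. The points share libraries and inputs, so r is a description. The stretch on chromosome 14 had 1 significant RNF219 peak and the other 4 had 0.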

How the data were processed

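eCLIP peak lists of 11 libraries from 293T cells were used, with 1 list per library and none for inputs. The submitters' processing notes list SAMtools, Picard, GATK, STAR and cutadapt and the hg19 build, with no versions or order. The sources used here do not name a peak caller or say whether PCR copies were removed. Each deposited peak has the authors' -log10 p-value against the size-matched input, without adjustment as far as the lists show, and the authors' log2 fold over that input. Peaks below input carry a -log10 p of 0. The titles of the samples gave the groups and the replicate numbers.

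Positions are 1-based. Folds of a library were whole-number ratios times 1 depth constant for 95.1% to 98.9% of peaks (tolerance 1e-07 on the log2 scale, at most 200 eCLIP and 50 input reads), and for at most 0.006% with a wrong constant. Read numbers were taken as recovered where the deposited p was also that of an exact or a Yates chi-square test on them (tolerance 0.005 in -log10 p). All IRS4 peaks with a -log10 p above 0 were recovered. On simulated libraries of 1500 peaks, 1312 and 1364 were recovered, and 100% of these were right. Below input, p holds no information, and the smallest whole numbers that give the fold were used. Total reads per library are unknown.

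The 3′ and 5′ parts were compared over proteins, replicates averaged first, by an exact sign-flip permutation test. The eCLIP libraries of a protein share 1 input, so replicates measure only the spread of the eCLIP side. Peaks named were all significant ones, the 3 highest per protein with a -log10 p of at least 3, and those nearest to the threshold. Where a count was 0, the limit is 3 counts of the total. The gene, its rule, the tests and the lists were chosen with earlier results of these data known. Peak sequences, motifs and the transcripts of insulin signalling were not analysed here, since no hg19 sequence or annotation was used. Scripts ran in Python 3.11.15 with numpy 2.4.6, pandas 2.3.3, scipy 1.17.1 and matplotlib 3.10.9.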

Additional observations from a re-analysis of the deposited data

Results flagged for a closer look

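RNF219 stood apart from each of the other 5 proteins in the direction of its change along IRS4. The median log2 fold of the 3′ part minus that of the 5′ part was 2.41 in RNF219 (n = 1 library), with the 3′ end higher. It was 1.36 among peaks with at most 5 input reads, a limit chosen after the data were seen, and 0.17 among those with at least 10, where the 3′ part has 1 peak. Averaged over 2 replicates, it was -0.31 in AIFM1, -0.58 in NUMA1, -1.47 in RANGAP1, -0.74 in VIM and -0.71 in ZNF184, and both replicates of each of these proteins were below 0. The difference was not tested, because RNF219 has 1 library and the gene was picked for its RNF219 peaks.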

How the results depend on the processing

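The change along the transcript over 5 proteins (-0.76) stayed below 0 in 5 of 5 proteins under every alternative run. With at least 10 input reads, AIFM1 rested on 1 peak of the 3′ part, in replicate 1. The p of 0.0625 for this change is the smallest 5 proteins allow and says nothing more. Leaving out 1 replicate at a time gave -0.90 to -0.63 and, for peaks per kb (-3.03), -3.23 to -2.84. Peaks per kb fell to a difference of -1.48 with the split at 6 kb and of -1.57 (p = 0.125, exact sign-flip permutation test) over block spans alone, added after seeing the data, where NUMA1 was above 0. The RNF219 change of 2.41 was 1.86 with the parts split at 3 kb, 0.17 with at least 10 input reads, where the 3′ part has 1 peak, and 1.36 with at most 5 input reads, a setting chosen after seeing the data. With at least 10 input reads the level of IRS4 against the library was 0.99 and 0.86 in the AIFM1 replicates, -0.40 and -0.48 in NUMA1, 0.37 and 0.46 in RANGAP1, 0.47 and -0.19 in VIM, and 0.61 and -0.10 in ZNF184. RANGAP1, VIM replicate 1 and ZNF184 replicate 1 thereby turned from below to above the library median, and the cause was not tested. This minimum can drop peaks below input, whose read numbers are only the smallest that give the fold. Weighted by peak length, the level was -1.30 in NUMA1 replicate 1, -0.81 and -0.93 in RANGAP1 and 1.39 in RNF219. Significant peaks numbered 7 in RNF219 and 0 and 0 in ZNF184 at a log2 fold of at least 4. At a log2 fold of at least 2 they numbered 10 and 2 in ZNF184, and 4 in the 8 libraries that had none, all of them in VIM replicate 1. With a -log10 p of at least 5, RNF219 had 5. Shares of the whole lists at these other thresholds were not taken, so nothing is read from these counts. No paired analysis was possible because no groups of samples with shared replicate numbers are compared: each difference is already taken between the ends within a library, and replicates are averaged per protein. Depth limits the folds with 1 input read most.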
